A study of Rattus norvegicus with 127 samples.

Results

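The question is whether the effect of a skeletal muscle matrix (SKM) injection on the injured pelvic floor of the rat depended on when it was given. It was addressed 7 days after injection in the pubocaudalis, part of the levator group of pelvic floor muscles, by the interaction of material and timing: SKM minus saline after delayed injection, less SKM minus saline after immediate injection. The samples were chosen by their labels, and 36 of the 127 samples of the series enter the contrast. They are 9 delayed SKM samples, 10 delayed saline samples, 8 immediate SKM samples and 9 immediate saline samples. All 134 genes of the panel were analysed.

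All 4 groups came from Sprague Dawley rats, and the labels name a simulated birth injury (SBI) with saline or SKM injection as the treatment. SKM is a hydrogel made from the decellularised extracellular matrix of skeletal muscle, and saline is its vehicle. The labels call the injections immediate or delayed and do not state the length of the delay, and days are counted from injection. Timing of injection and age of the injury at sampling cannot be told apart. No label ties a sample to its own animal, and p-values therefore speak of sample-to-sample spread, which may in part be technical.

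Injured muscle is first entered by neutrophils and macrophages, which clear debris. Satellite cells, the stem cells of muscle, then divide and fuse into new fibres that pass through an embryonic myosin, while fibroblasts lay down collagen and vessels regrow. Matrix hydrogels are known as materials that draw in host cells and act on the macrophage response and on the remodelling of scar. RNA was counted with a custom nCounter panel, in which barcoded probes bind RNA molecules directly. The values are the authors' normalized signal, and differences are given as log2(value + 1), a scale on which changes of low genes come out too small. A gene is called at a Benjamini-Hochberg adjusted p under 0.05 in a limma fit, and ± after a log2 difference is its standard error.

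The 36 samples held 580205 to 1670959 counts each (median 1308004.5). The factor by which the authors multiplied the counts differed between the groups, with medians of 0.903 in delayed SKM, 1.14 in delayed saline, 1.43 in immediate SKM and 1.76 in immediate saline. The median log2 value over the panel averaged 9.76 ± 0.17 in delayed SKM (SD, n = 9), 9.51 ± 0.18 in delayed saline (n = 10), 10.36 ± 0.07 in immediate SKM (n = 8) and 10.49 ± 0.12 in immediate saline (n = 9). Both delayed groups lay wholly below both immediate groups, as the plot of panel medians shows. The interaction of this median alone was 0.38, with a permutation p of 0.00024 (two-sided, material labels permuted within each timing). Because the panel as a whole takes part in the contrast, the main comparisons were repeated with every sample centred on its own panel median. A set of 3 samples stood far from their own group, with a median absolute deviation over genes of 1.07 in immediate SKM replicate 7, 1.01 in immediate saline replicate 7 and 0.712 in delayed SKM replicate 8. Their summed fibre markers were 114462, 140349 and 441787, each the lowest of its group, and their values of the macrophage gene Adgre1 were 13703, 11745 and 9270, each the highest.

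**Figure D1:**
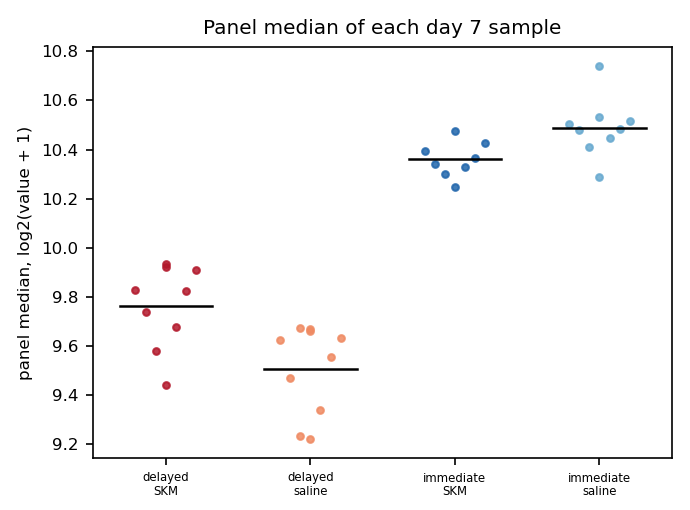
Median log2(value + 1) over the 134 genes in each day 7 sample (vertical axis), with 1 point per sample and a line at the group mean; groups from left to right are delayed SKM, delayed saline, immediate SKM and immediate saline. The delayed samples run from 9.22 to 9.93 and the immediate samples from 10.25 to 10.74.

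The effect of SKM after delayed injection exceeded that after immediate injection for Hgf and Itga1. These 2 of 134 genes were called, 1.49% of the panel, and none was called in the other direction. Before adjustment 40 genes, 29.9% of the panel, had p under 0.05. Of these, 39 (29.1%) were positive and 1, Akt2, which encodes a kinase of insulin and growth factor signalling, was negative. Over all 134 genes the interaction was above 0 in 93, with a median of 0.45 on the log2 scale. In 71 genes the SKM effect was positive after delayed and negative after immediate injection, and in 27 it was the reverse. After centring on the panel median these counts were 40 and 42. The centred interaction was above 0 in 72 genes and below 0 in 62. The 2 effects rest on separate samples.

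Hgf encodes hepatocyte growth factor, which wakes satellite cells and acts on endothelium. Its value was 42.9 to 99.1 (median 72.2) in delayed SKM samples, 28.7 to 61.9 (median 37.8) in delayed saline samples, 58.1 to 274 (median 112) in immediate SKM samples and 75.5 to 340.5 (median 153) in immediate saline samples. All 9 delayed SKM samples lay above the median of delayed saline, and 6 lay above its highest sample, while 7 of 8 immediate SKM samples lay below the median of immediate saline. SKM minus saline was 0.78 ± 0.23 after delayed injection (adjusted p = 0.015) and -0.43 ± 0.24 after immediate injection (adjusted p = 0.938). The interaction was 1.21 ± 0.33 (95% interval 0.55 to 1.86, adjusted p = 0.0416). Hgf was not called with the 4 groups fitted alone (adjusted p = 0.0608), with voom weights (0.128) or scaled to the panel total (0.194). Hgf is a low gene here, with 17 counts in its lowest sample.

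Itga1 encodes the alpha-1 chain of a collagen-binding integrin, a receptor that ties cells to basement membrane. It was measured at 384.5 to 453 (median 435.3) in delayed SKM samples, 252 to 433 (median 390.5) in delayed saline samples, 514 to 732 (median 589) in immediate SKM samples and 585 to 962 (median 825) in immediate saline samples. The 4 groups were ordered immediate saline, immediate SKM, delayed SKM, delayed saline, and only the SKM and saline groups of the same timing overlapped with each other. This order of group means is not particular to Itga1. It held in 67 of the 134 genes, and in 37 of the 40 with an unadjusted interaction p under 0.05. The second count largely follows from the selection, since 39 of these 40 genes were picked with a positive interaction, and it is no separate result. SKM minus saline was 0.25 ± 0.14 after delayed injection (95% interval -0.01 to 0.52) and -0.44 ± 0.14 after immediate injection (-0.73 to -0.16), and neither was called. The interaction was 0.70 ± 0.20 (95% interval 0.31 to 1.09, adjusted p = 0.0416). Itga1 remained called with the 4 groups fitted alone (adjusted p = 0.00668) and with voom weights (0.0461), but not scaled to the panel total (0.159). In uninjured muscle the 3 samples had values of 465 to 592.

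Mmp14 and Kdr came next, each at an adjusted p of 0.0521. Mmp14 encodes a membrane-bound protease that cleaves collagen at the cell surface and activates other metalloproteinases. Its value was 1069 to 5698 (median 2019) in delayed SKM, 472 to 1764 (median 932) in delayed saline, 5199 to 15582 (median 7312) in immediate SKM and 5965 to 22073 (median 7881) in immediate saline. Delayed SKM stood above delayed saline in 9 of 9 samples when set against the saline median, and the interaction was 1.25 ± 0.38. Kdr encodes the main endothelial receptor for vascular endothelial growth factor. Its medians were 189 in delayed SKM, 145.5 in delayed saline, 329.6 in immediate SKM and 427 in immediate saline, and the interaction was 0.83 ± 0.26.

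None of the other genes among the 10 smallest p was called for the interaction. Ccn2, a matricellular protein induced by TGF-beta and linked to fibrosis, had medians of 2066 in delayed SKM, 1672 in delayed saline, 2800 in immediate SKM and 5664 in immediate saline. Its interaction of 1.37 ± 0.44 (adjusted p = 0.0596) combined a SKM effect of 0.51 ± 0.30 after delayed injection with one of -0.86 ± 0.32 after immediate injection. Tgfb1, which encodes the matrix-inducing cytokine TGF-beta 1, was called after delayed injection. Its medians were 1459 in delayed SKM, 805 in delayed saline, 4198 in immediate SKM and 4565 in immediate saline, with a SKM effect of 1.03 ± 0.26 after delayed injection (adjusted p = 0.00882), -0.11 ± 0.28 after immediate injection and an interaction of 1.14 ± 0.38 (adjusted p = 0.0596). Tie1, an endothelial receptor of the angiopoietin system, had an interaction of 0.61 ± 0.20 at the same adjusted p.

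Tpm4, a cytoskeletal tropomyosin, had medians of 4069 in delayed SKM, 2521 in delayed saline, 7770 in immediate SKM and 10488 in immediate saline, and an interaction of 0.96 ± 0.32 (adjusted p = 0.0596). Itgb1, the beta chain that pairs with the integrin chain of Itga1, had a tight spread and a small interaction of 0.40 ± 0.14 (adjusted p = 0.0628). Its values were 7228 to 10050 in delayed SKM, 6810 to 9808 in delayed saline, 14327 to 17400 in immediate SKM and 14486 to 22686 in immediate saline, so the delayed and the immediate samples did not overlap. App, the amyloid precursor protein, which is found at the neuromuscular junction, had an interaction of 0.50 ± 0.18 (adjusted p = 0.078). The permutation test of single genes, which does not share the spread between genes, gave p from 6e-05 for Itga1 to 0.0254 for Tgfb1 over these 10 genes on the deposited scale, and from 0.012 for Hgf to 0.889 for Itgb1 after centring, with 0.194 for Tie1 and 0.332 for App. They were picked for small p in the same contrast, so these values add no independent evidence.

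**Figure D2:**
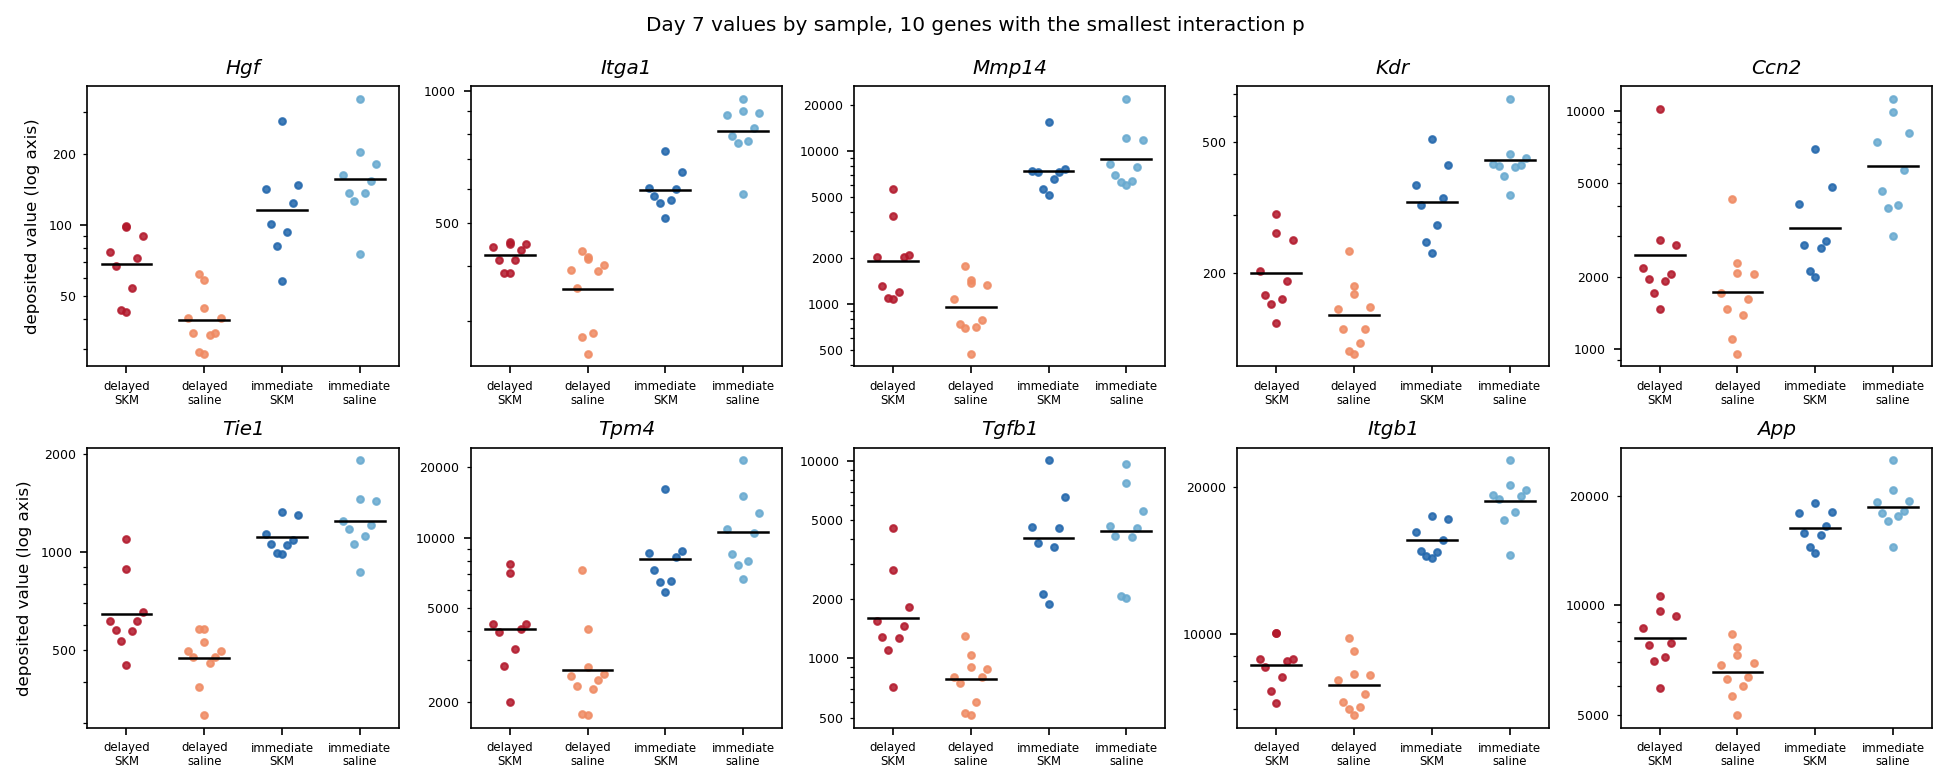
Deposited value (log axis) of each of the 10 genes with the smallest interaction p, with 1 point per sample and a line at the group mean of log2(value + 1); groups from left to right are delayed SKM, delayed saline, immediate SKM and immediate saline. The mean of delayed SKM lies above that of delayed saline and the mean of immediate SKM below that of immediate saline in all 10, and Hgf medians are 72.2, 37.8, 112 and 153 from left to right.

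Leaving out single samples moved the call of both genes more than their size. With any 1 of the 36 samples left out, the interaction stayed between 1.07 and 1.38 for Hgf and between 0.64 and 0.76 for Itga1. The adjusted p ran from 0.00676 to 0.104 for Hgf and from 0.0195 to 0.104 for Itga1, and each remained called in 22 of the 36 fits. No gene was called (0) without delayed SKM replicate 4, 8 or 9, delayed saline replicate 3, 4, 5 or 9, immediate SKM replicate 1, 2, 3, 5 or 6, or immediate saline replicate 2 or 7. The count went the other way for other samples. It was 28 without immediate SKM replicate 7, 27 without delayed SKM replicate 1, 21 and 18 without immediate saline replicates 4 and 6, and 14 without delayed saline replicate 6 or 10. It was 7 without delayed SKM replicate 6 or immediate SKM replicate 8, 6 without delayed SKM replicate 3, and 5 without immediate saline replicate 1 or 8. It was 4 without delayed SKM replicate 5 or 7 or delayed saline replicate 1 or 2, and 3 without immediate SKM replicate 4 or immediate saline replicate 3 or 9. Without all 3 samples that stood far from their groups no gene was called, and the interaction was 1.18 for Hgf (adjusted p = 0.0669) and 0.67 for Itga1 (adjusted p = 0.119).

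Once each sample was centred on its panel median, no gene was called for the interaction (0.0% of the panel), and 31 (23.1%) had an unadjusted p under 0.05, 13 of them (9.7% of the panel) positive and 18 (13.4%) negative. The median interaction was then 0.06. The 5 smallest p belonged to Akt1 (-0.50 ± 0.16), Akt2 (-0.81 ± 0.26), Mtor (-0.62 ± 0.21), Rps6kb1 (-0.70 ± 0.24) and Hgf (0.82 ± 0.29), all at an adjusted p of 0.101. The first 4 encode kinases of the growth pathway that runs from Akt through mTOR to S6 kinase and drives protein synthesis in muscle. On the deposited scale their interactions were -0.12 ± 0.12, -0.43 ± 0.21, -0.24 ± 0.18 and -0.32 ± 0.19. The adjusted p of 0.101 was shared by genes outside this pathway, such as Dvl1 (-0.74 ± 0.27) and Mmp14. Of the 13 genes in the anabolic list 3 were positive after centring, among them Igf1 (0.26 ± 0.28) and Rps6ka1 (0.26 ± 0.37). Hgf kept its sign on both scales, and Itga1 stood at 0.31 ± 0.15 after centring (adjusted p = 0.193) and at -0.05 after quantile normalization (adjusted p = 0.915). Of the other leading genes, the centred interaction was 0.98 ± 0.42 for Ccn2, 0.87 ± 0.32 for Mmp14, 0.75 ± 0.34 for Tgfb1, 0.58 ± 0.28 for Tpm4 and 0.45 ± 0.22 for Kdr. It was near 0 for Itgb1 (0.017 ± 0.12), and small beside its error for App (0.11 ± 0.13) and Tie1 (0.23 ± 0.17). The 14 genes with p under 0.05 on both scales had the same sign on both. Leaving out immediate SKM replicate 7 gave 20 calls on the centred scale, 4 positive and 16 negative, and leaving out delayed SKM replicate 1 gave 12, while the other 34 fits gave none (0).

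By gene list, the neutrophil, macrophage and monocyte genes had the highest median interactions, and none of these genes was called. Counts of list members with an unadjusted p under 0.05 are to be read against 29.9% of the panel. All 5 monocyte chemokine and receptor genes on the panel were positive, with a median of 1.75 beside 0.45 for the panel, and 3 had an unadjusted p under 0.05. Ccl2, which draws monocytes into tissue, had 1.84 ± 0.78 and Ccl3 1.21 ± 0.92. The 4 macrophage genes had a median of 1.79, and 1 had an unadjusted p under 0.05. That gene was Mmp12, the macrophage elastase, at 3.74 ± 1.85, while Adgre1, which encodes the macrophage surface protein F4/80, had 1.45 ± 0.77 and Arg1, an arginase of repair-type macrophages, 1.16 ± 0.86.

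Of the 5 pro-inflammatory cytokine genes 2 had an unadjusted p under 0.05, Il1b (2.72 ± 1.35) and Tnf (2.22 ± 0.98), and Il2 was at -0.04 ± 0.86. These genes lay near the floor in part of the samples. The median of Tnf was 22.4 in delayed SKM, 7.03 in delayed saline, 32.2 in immediate SKM and 19.4 in immediate saline, and it was at 0 counts in 2 delayed saline samples and 1 immediate SKM sample. The 3 neutrophil genes had the highest list median, 2.48, and none had an unadjusted p under 0.05. Cxcl1, a neutrophil attractant, had 2.48 ± 1.28, its receptor Cxcr2 2.71 ± 1.41 and the neutrophil collagenase Mmp8 -0.34 ± 0.91, and Cxcr2 was at 0 counts in 12 of the 36 samples. Of the 5 type 2 and regulatory immune genes 3 had an unadjusted p under 0.05, among them Tgfb1 and Stat6, the transducer of interleukin-4 signals (0.63 ± 0.31), and Il10, an anti-inflammatory cytokine, was at 0.06 ± 0.37.

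Myd88, the adaptor of Toll-like receptors, had 0.86 ± 0.34 and Nfkb1, a subunit of NF-kappaB, 0.52 ± 0.24. Ikbkb, a kinase upstream of NF-kappaB, had -0.17 ± 0.18, and its name rests on a weak match of values. Of the 3 lymphocyte genes 1 had an unadjusted p under 0.05, near the 29.9% of the panel, Tbx21, a T helper 1 factor (2.09 ± 1.04), with Foxp3, which marks regulatory T cells, at -0.30 ± 0.53 and Gata3, a T helper 2 factor, at -0.23 ± 0.68. None of these lists held a called gene.

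No gene of the matrix lists was called either. All 3 genes of the matricellular list had an unadjusted p under 0.05, beside 29.9% of the panel, with a median of 1.62. Beside Ccn2 these were Tnc, a matrix protein of wounds and regenerating muscle (1.77 ± 0.67), and Thbs1, which activates latent TGF-beta (1.62 ± 0.63). Ccn4, a relative of Ccn2 that the list leaves out, had 1.01 ± 0.58 and an unadjusted p of 0.0823 in limma. Of the 9 protease and inhibitor genes 7 were positive and 6 had an unadjusted p under 0.05, with a list median of 0.81. Adam12, a metalloprotease of fusing myoblasts and fibroblasts, had 1.37 ± 0.51, and Timp4, a metalloproteinase inhibitor, -0.17 ± 0.43. Both fibrillar collagens of the matrix list were positive, Col1a1 at 1.25 ± 0.52 and Col3a1 at 1.02 ± 0.40, and the collagen-binding proteoglycan gene Dcn was at 0.37 ± 0.24. The hyaluronan synthase genes had 1.28 ± 0.63 for Has1 and 0.76 ± 0.49 for Has2. In the TGF-beta list Smad3, a transducer of TGF-beta, had -0.34 ± 0.32 and Smad4, its partner, 0.02 ± 0.13. Pdgfra, a receptor on fibroblasts and fibro-adipogenic cells, had 0.39 ± 0.23, and Pdgfa, one of its ligands, 0.10 ± 0.17.

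In the lists drawn up for muscle, Hgf and Itga1 were the only genes called for the interaction. Membership of a list does not say which cells of the tissue expressed a gene. Myh3, the embryonic myosin of newly formed fibres and the one gene of its list, had an interaction of 1.51 ± 0.87. Of the 8 myogenic regulators 1, Hgf, was called, and 3 had an unadjusted p under 0.05. Ptn, a heparin-binding growth factor, had 0.90 ± 0.34, and Myog, the factor of myoblast differentiation, 0.17 ± 0.38. The fibre membrane and cytoskeleton list held Itga1 and Itgb1, and Dmd, which encodes dystrophin, was at 0.08 ± 0.35. The 11 adult sarcomere genes had a median of -0.11, below the panel's 0.45, and none had an unadjusted p under 0.05. Examples are Acta1, skeletal actin (-0.59 ± 0.55), Tnnt3, fast troponin T (-0.53 ± 0.52), and Ttn, titin (-0.01 ± 0.74). In the 6 catabolic genes the median was -0.19, with the ubiquitin ligase gene Trim63 at -0.73 ± 0.42, Foxo3, a driver of atrophy genes, at 0.25 ± 0.18 and the related Foxo1 at -0.08 ± 0.23. In the 13 anabolic genes it was -0.12, with Igf1, the growth factor of muscle, at 0.64 ± 0.32 and the insulin receptor adaptor gene Grb10 at 0.20 ± 0.23. Sln, a regulator of the calcium pump, had 1.02 ± 0.57 and Jsrp1, a protein of the sarcoplasmic reticulum, -0.43 ± 0.41.

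Among the 7 vascular genes Kdr and Tie1 had an unadjusted p under 0.05, the list median was 0.33, and Vegfa, the ligand of Kdr, was at -0.06 ± 0.30. In the neuromuscular junction list all 5 genes were positive, with Agrn, which clusters acetylcholine receptors, at 0.61 ± 0.24 and Erbb2, a neuregulin co-receptor, at 0.41 ± 0.43. After centring, the list medians that stayed farthest above 0 were those of the neutrophil (2.09), macrophage (1.41), monocyte chemokine (1.37) and matricellular (1.24) genes, and those farthest below were the lymphocyte (-0.62), catabolic (-0.57), anabolic (-0.50) and sarcomere (-0.49) genes. On the deposited scale the other list medians were 1.04 for pro-inflammatory cytokines, 1.02 for matrix structure and for hyaluronan, 0.63 for type 2 and regulatory, 0.61 for neuromuscular junction, 0.49 for Toll-like receptor, 0.40 for fibre membrane, 0.38 for myogenic, 0.295 for sarcoplasmic reticulum, 0.24 for fibroblast and PDGF, 0.19 for TGF-beta and -0.23 for lymphocyte genes. Quantile normalization turned Erbb2 to -0.52 and Has2 to -0.24. The plot of lists shows both scales.

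**Figure D3:**
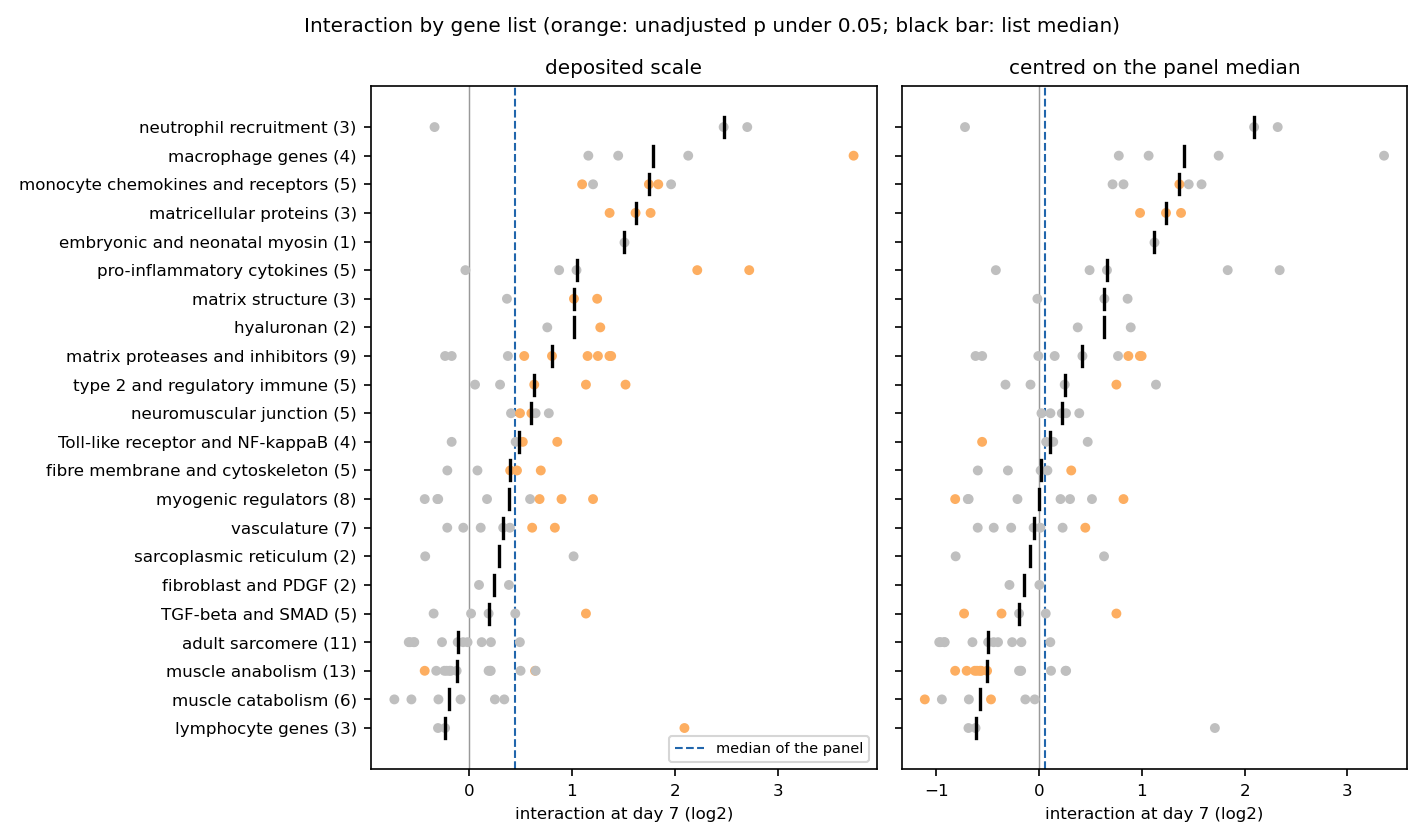
Interaction at day 7 (log2, horizontal axis) of each gene by list, on the deposited scale at left and after centring at right; numbers in brackets count the genes on the panel, orange points have an unadjusted p under 0.05, black bars are list medians and the dashed line is the panel median of 0.45 at left and 0.06 at right. The neutrophil, macrophage, monocyte and matricellular lists have the highest medians on both scales.

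The first term of the contrast, SKM against saline after delayed injection, held most of the calls. SKM was higher in 20 genes, 14.9% of the panel, and lower in none (0.0%), and 45 genes had an unadjusted p under 0.05. The smallest p belonged to Adgre1 (2.10 ± 0.53), Tgfb1 (1.03 ± 0.26), Irf5, a transcription factor of inflammatory macrophages (1.13 ± 0.30), and Mmp14 (0.99 ± 0.26), each at an adjusted p of 0.00882. Adgre1 stood at 241 to 9270 (median 597) in delayed SKM and 166 to 441 (median 210) in delayed saline, and 8 of 9 SKM samples lay above the highest saline sample. By list the calls comprised 3 of 5 monocyte chemokine and receptor genes, 2 of 4 macrophage genes, 2 of 5 pro-inflammatory cytokines, 3 of 5 type 2 and regulatory genes and 4 of 9 protease and inhibitor genes, and 0 of 11 sarcomere genes. Of the genes lower with SKM, the smallest p were those of Rps6kb1 (-0.35 ± 0.13, adjusted p = 0.0523), Akt2 (-0.24 ± 0.14), Eif4ebp1, a brake on translation (-0.19 ± 0.12), Mmp1, an interstitial collagenase (-0.50 ± 0.31) and Rheb, the activator of mTOR (-0.18 ± 0.11), and none was called.

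On the centred scale SKM was higher in 6 genes (4.48%) and lower in 4 (2.99%), together 7.46% of the panel. Among the higher ones were Adgre1, Tgfb1, Mmp14, Irf5 and Ccr2, a monocyte receptor for Ccl2, and the lower ones were Rps6kb1 (-0.60 ± 0.17), Mtor (-0.44 ± 0.14), Eif4ebp1 (-0.44 ± 0.15) and Rheb (-0.43 ± 0.14). The count of 20 on the deposited scale depended on single samples. It was 0 without delayed SKM replicate 8, 7 without delayed saline replicate 3, 9 without delayed SKM replicate 9, 12 and 13 without delayed saline replicates 8 and 4, 31 and 43 without delayed SKM replicates 6 and 1, and 33 without delayed saline replicate 10. It was 7 without the 3 samples far from their groups.

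The second term, SKM against saline after immediate injection, held no call (0 of 134, 0.0%) in limma, and 7 genes, 5.22% of the panel, had an unadjusted p under 0.05, all lower with SKM. After centring none was called (0) and 3 (2.24%) had an unadjusted p under 0.05. The 7 genes of the deposited scale included Itga1, Itgb1 (-0.27 ± 0.10), Ccn2, Myf5, a myogenic determination factor (-0.51 ± 0.22), and Myh3 (-1.52 ± 0.63, 95% interval -2.77 to -0.27, adjusted p = 0.541). Myh3 stood at 436 to 34723 (median 20337) in immediate SKM and 6119 to 79715 (median 37014) in immediate saline, and the 2 groups overlapped widely. The smallest p among genes higher with SKM were those of Gata3 (0.70 ± 0.49), Akt2 (0.19 ± 0.15), Adgre1 (0.65 ± 0.56), Trim63 (0.33 ± 0.31) and Dvl1, a transducer of Wnt signals (0.17 ± 0.16). The 95% interval for Adgre1 was -0.46 to 1.76 after immediate injection and 1.05 to 3.15 after delayed injection, and its interaction was not called (adjusted p = 0.186).

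**Figure D4:**
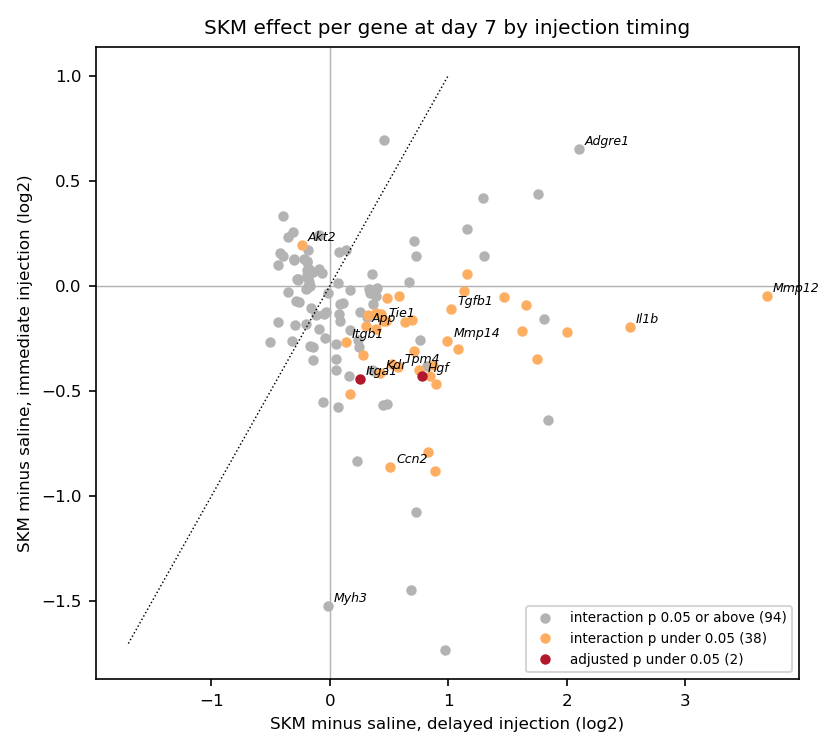
SKM minus saline (log2) at day 7 for each of the 134 genes, after delayed injection (horizontal axis) and after immediate injection (vertical axis); the dotted line marks equal effects, and colours mark the interaction p. Hgf and Itga1, in red, lie right of 0 and below it, and Adgre1, Il1b and Mmp12 lie far to the right.

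Many more genes were called between the timings than between the materials. In saline muscles 92 genes, 68.7% of the panel, were lower after delayed than after immediate injection and 3, 2.24%, were higher. Among those with the largest fall were Myh3 (-4.72 ± 0.60), Adam12 (-4.59 ± 0.35), Il1b (-4.07 ± 0.93), Tnc (-3.97 ± 0.46) and Col1a1 (-3.94 ± 0.35). Col1a1 ranged over 4473 to 47050 in delayed saline and 120222 to 332756 in immediate saline, with no overlap. The higher genes were the sarcomere genes Acta1 (1.08 ± 0.38), Mybpc2, a fast myosin-binding protein (0.98 ± 0.41), and Tcap, which anchors titin (0.94 ± 0.44). In SKM muscles 87 genes, 64.9%, were lower after delayed injection and none (0.0%) was higher. All 10 delayed saline samples lay below all 9 immediate saline samples in 50 genes, and all 9 delayed SKM samples below all 8 immediate SKM samples in 17. After centring, 59 genes (44.0%) were lower and 45 (33.6%) higher in delayed than in immediate saline, 77.6% in all, and 24 (17.9%) were lower and 6 (4.48%) higher in delayed than in immediate SKM, 22.4% in all.

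Summed markers of several cell types differed in level between these groups on the deposited scale. On that scale the panel median itself differed by -0.98 (log2) in delayed minus immediate saline and by -0.60 in delayed minus immediate SKM. The sums were not centred, so they include this shift of the whole panel. The 4 macrophage markers summed to 293 to 11219 (median 2584) in delayed SKM, 230 to 940 (median 317) in delayed saline, 1223 to 20292 (median 3920) in immediate SKM and 516 to 26800 (median 4093) in immediate saline. The 4 fibroblast markers had median sums of 83070 in delayed SKM, 66979 in delayed saline, 403360 in immediate SKM and 483022 in immediate saline, and the 2 endothelial markers 822, 627, 1399 and 1637 in the same order. The 4 satellite cell and myoblast markers had 1972, 2085, 3454 and 5061, and the 13 fibre markers 784258, 1014233, 929282 and 871475, so the muscle identity of the samples was borne out in every group. The 3 lymphocyte markers, at 254, 278.5, 197.5 and 284, overlapped widely between all 4 groups. So did the 3 genes summed for neutrophils, at 55.1, 39.9, 55.4 and 77.3. Of these, Cxcl1 encodes an attractant of neutrophils and does not mark the cells themselves. No marker was at 0 in all samples of a group. The part of these shifts in the gene results was not tested, and in bulk tissue fewer cells of a type and less RNA per cell cannot be told apart.

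Set beside day 3, the same contrast over 36 other samples held no call in the limma fit of all groups (0 of 134, 0.0%), with 33 genes, 24.6%, at an unadjusted p under 0.05, 25 of them positive and 8 negative. The smallest p at day 3 belonged to Rps6ka1, a ribosomal S6 kinase (1.27 ± 0.40), Myf5 (-0.93 ± 0.30) and Stat6 (0.94 ± 0.31), each at an adjusted p of 0.0865. Hgf was at 0.60 ± 0.33 and Itga1 at 0.19 ± 0.20 on day 3. The count at day 3 was 12 with its 4 groups fitted alone, 15 when these were also centred and 75 with array weights, against 1, 0 and 39 at day 7 under the same settings. After centring with all groups in the fit no gene was called at day 3 (0), and 40 had an unadjusted p under 0.05. Leaving out immediate saline replicate 3 of day 3 gave 12 calls at that day, and no other sample gave any.

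The day 7 interaction exceeded that of day 3 for 1 gene, Myf5, 0.746% of the panel, at 1.62 ± 0.42 (95% interval 0.78 to 2.46, adjusted p = 0.0305). At day 7 its median was 76.8 in delayed SKM, 69.1 in delayed saline, 220 in immediate SKM and 331 in immediate saline, and the interaction was 0.69 ± 0.30, or -0.17 after quantile normalization. At day 3 its median was 111 in delayed SKM, 138.5 in delayed saline, 403 in immediate SKM and 251 in immediate saline, with SKM below saline after delayed injection and above it after immediate injection. Myh3 (3.35 ± 1.23) and Pax7, the transcription factor of satellite cells (1.43 ± 0.55), followed at an adjusted p of 0.454 and had the same pair of signs, positive at day 7 and negative at day 3. The call of Myf5 was lost after centring (1.34, adjusted p = 0.311), without the 3 samples far from their groups (1.52, adjusted p = 0.0994), and without any 1 of 14 samples. At day 7 these were delayed SKM replicate 4, delayed saline replicate 10, immediate SKM replicates 1 and 2, and immediate saline replicates 2 and 7. At day 3 they were delayed SKM replicates 1 and 8, delayed saline replicates 2 and 4, immediate SKM replicate 5, and immediate saline replicates 2, 4 and 6.

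**Figure D5:**
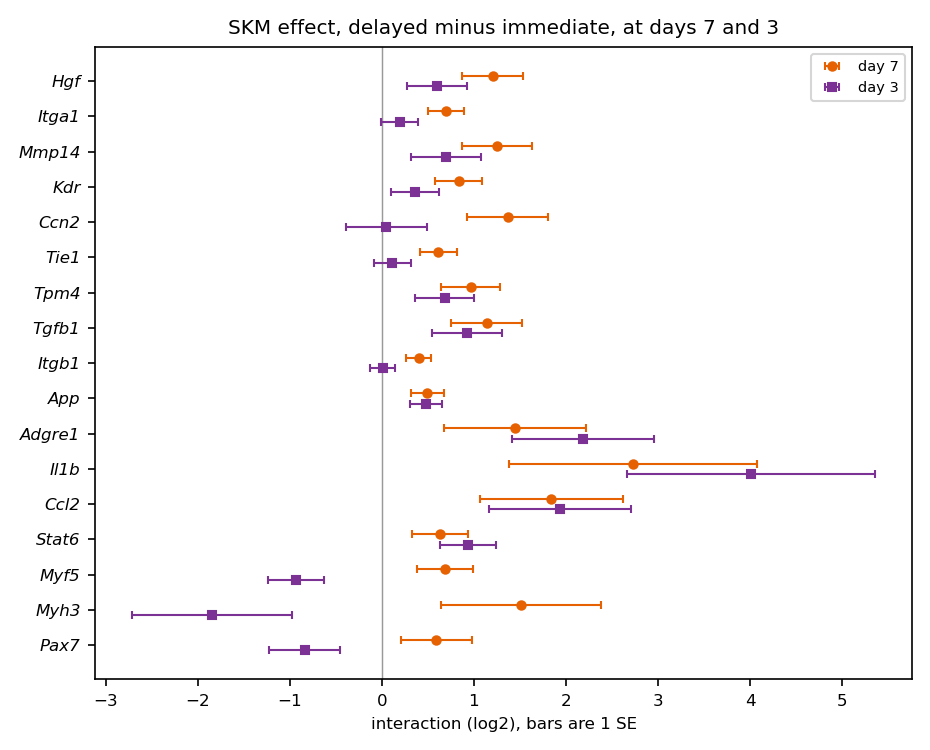
Interaction (log2, horizontal axis) at day 7 (circles) and day 3 (squares) for the 10 genes with the smallest day 7 p and 7 further genes named in the text; bars are 1 standard error. Myf5, Myh3 and Pax7 lie above 0 at day 7 and below it at day 3. The other genes lie above 0 on both days, though Itgb1 (0.01 ± 0.14) and Ccn2 (0.05 ± 0.44) are near 0 at day 3. Quantile normalization turns the day 7 value to -0.17 for Myf5, -0.33 for Pax7 and -0.046 for Itga1.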

How the data were processed

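RNA of the pubocaudalis was counted on a custom nCounter panel, per the labels. The authors deposited a normalized signal on a linear scale, and how it was scaled is not given in the sources used here. All 16829 values above the floor of 0.1 were whole multiples of 1 step per sample (within 0.05 of a count), which gave counts and factors. The value table has no gene names. These were matched by value to the log2 fold changes in the authors' deposited table: all 134 genes were named, 130 as the best match both ways (not Ccn2, Dcn, Ikbkb and Prkaa1), with a median difference of 0.0049.

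All 18 groups (124 samples, after 3 pairs with identical counts, none in the day 7 injection groups, were averaged) were fitted to log2(value + 1) with limma 3.58.1 in R 4.3.3, tested on simulated data. Adjustment ran over 134 genes within each of 7 comparisons. Permutation tests used 100000 resamples (Python 3.11.15, numpy 2.4.6, pandas 2.3.3, scipy 1.17.1, matplotlib 3.10.9). Named were the 10 smallest interaction p, the 5 smallest after centring, the 5 smallest per direction for each SKM effect, up to 5 called with the largest change per direction between saline groups, per list the 2 smallest p and the largest, and the 3 smallest for day 3 and for the difference between days. Ccr2 and Ccn4 were named after their values were seen. One gene that the rule names is not reported here. The contrast, the 23 gene lists (1, adipogenic, had no gene on the panel) and the alternatives were chosen with earlier results of these data known.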

Additional observations from a re-analysis of the deposited data

Results flagged for a closer look

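The difference between SKM effects by timing passed the threshold for Hgf (1.21, log2) and Itga1 (0.70), and the difference of that contrast between days 7 and 3 did so for Myf5 (1.62).

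Among 44 sets of a gene or the panel median and a group, 5 held 1 sample set apart by Dixon's test, where chance flags about 5% of sets. Mmp14 (15582) and Tpm4 (16108) were highest in immediate SKM replicate 7. Kdr was highest in immediate saline replicate 7 (677.4) and Ccn2 in delayed SKM replicate 9 (10223). Itga1 was lowest in immediate saline replicate 1 (585.0). Among these samples, delayed SKM replicate 9 and immediate saline replicate 7 are among those whose removal left no gene called for the interaction.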

How the results depend on the processing

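The count of 2 for the day 7 interaction depended on the processing, and the cause was not tested. It was 0 after centring, quantile normalization or scaling to the panel total, 1 (Itga1) with the 4 groups alone or with voom weights, 4 with a pseudocount of 10 or a mean value of at least 50, 39 (37 higher, 2 lower) with array weights, and 0 without the 3 samples far from their groups, centred or not. Centred with the 4 groups alone it was 0. The SKM effect after delayed injection (20, all higher) gave 10 calls centred, 6 higher and 4 lower. It gave 1, lower, quantile normalized and 33, all higher, scaled to the panel total. The count was 12 with the groups alone (11 higher, 1 lower) and 56 with array weights (46 higher, 10 lower). Centred with the groups alone it was 6 (5 higher, 1 lower). Without the 3 samples it was 7, all higher, and 0 after centring. The effect after immediate injection (0) gave 4, all lower, with array weights and 0 otherwise. Delayed against immediate SKM (87) gave 30 centred, 33 quantile normalized, 29 scaled to the panel total, 30 with voom, 16 centred with the groups alone and 25 centred without the 3 samples. Delayed against immediate saline kept 85 to 109 calls, but the split of 3 higher and 92 lower became 45 and 59 centred, 51 and 34 quantile normalized and 28 and 71 scaled to the panel total. The day 3 interaction (0) gave 2 quantile normalized, 12 with the groups alone, 75 with array weights and 15 centred with the groups alone. Without the 3 samples it gave 7, and 13 after centring. These 3 are day 7 samples, so this changed the spread estimated over all groups and not the day 3 differences. The difference between days (1) gave 0 centred, quantile normalized, scaled to the panel total, with array weights, with voom and without the 3 samples, and 2 with the groups alone. No label says what the replicate numbers stand for, so whether samples are paired is not known. Same-numbered deviations correlated from -0.67 to 0.957, with both extremes between immediate SKM and immediate saline. With the replicate number as a block the counts were 1 for the day 7 interaction and 2 for the delayed effect. They were 16 for day 3 and 0 for the difference between days. With the block after centring they were 0, 47, 19 and 0 in the same order, with 17 for delayed against immediate SKM. Of the 47 for the delayed effect, 11 were higher and 36 lower with SKM, so most went against the direction of the 20.

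With 1 sample left out the counts ran from 0 to 28 for the interaction, 0 to 43 for the delayed effect, 0 to 0 for the immediate effect, 91 to 98 and 80 to 87 for timing in saline and in SKM, 0 to 12 at day 3 and 0 to 1 for the difference between days. Single genes whose interaction changed sign in this way were Dmd (-0.16 to 0.26), Gata3 (-0.43 to 0.31), Il10 (-0.062 to 0.13), Il2 (-0.52 to 0.36), Mmp8 (-0.83 to 0.22), Myog (-0.032 to 0.49), Smad4 (-0.027 to 0.074), Timp4 (-0.45 to 0.06), Ttn (-0.41 to 0.32) and Vegfa (-0.23 to 0.10).

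Other signs turned as follows. Centred, with all groups or the 4 alone, Dcn was -0.015, Dmd -0.30, Foxo3 -0.13, Grb10 -0.18, Il10 -0.33, Myog -0.21, Pdgfa -0.29 and Smad4 -0.36. Quantile normalized, Dmd was -0.084, Erbb2 -0.52, Foxo3 -0.33, Grb10 -0.076, Has2 -0.24, Il10 -0.97, Itga1 -0.046, Myf5 -0.17, Myog -0.18, Pax7 -0.33, Pdgfa -0.38, Rps6ka1 -0.073, Smad4 -0.16 and Ttn 0.11. Scaled to the panel total, Il2 was 0.074, Ttn 0.045, Vegfa 0.0036 and the delayed effect of Rheb 0.0093. With voom, Foxo1 was 0.049, Ttn 0.057 and that of Rheb 0.0089. With array weights, Dmd was -0.014 and Il10 -0.17, and with a pseudocount of 10 Il2 was 0.069. With the block, Il10 was -0.016, Il2 0.023 and Smad4 -0.014, and with the block after centring Dcn -0.11, Dmd -0.37, Foxo3 -0.15, Grb10 -0.26, Il10 -0.40, Itgb1 -0.027, Myog -0.32, Pdgfa -0.32, Pdgfra -0.066 and Smad4 -0.40. Without the 3 samples Smad4 was -0.0019 and Ttn 0.0093, and after centring Dmd was -0.33, Erbb2 -0.13, Foxo3 -0.069, Grb10 -0.22, Il10 -0.24, Myog -0.31, Pdgfa -0.32, Pdgfra -0.013 and Smad4 -0.34.

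The planned edgeR test and TMM scaling were not run. No deposited column holds counts, and voom was run instead on the counts recovered from the deposited values, with panel totals. Leaving out the 3 samples, voom with panel totals and each centred fit with a second change were chosen after seeing the data. Genes of few counts, such as Cxcr2 and Tnf, are limited by depth. Mmp12 was low on average in delayed saline alone, with a mean log2 value of 3.85. Its mean was 7.54 in delayed SKM, 7.30 in immediate SKM and 7.35 in immediate saline.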
